A study of Mus musculus with 12 samples.

Results

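The comparison described here set 3 livers of mice given carbon tetrachloride and curcumin at 50 mg/kg, called medium after the labels, against 3 livers of mice given carbon tetrachloride alone, called control. These are 6 of the 12 libraries of the series, picked by the treatment their labels state, and the other 6 are the low (25 mg/kg) and high (100 mg/kg) curcumin groups with 3 libraries each. All mice were wild-type C57BL/6J, 6 weeks old at the start. Every group, control included, had 200 µL of a 7.5% carbon tetrachloride solution in olive oil injected into the abdomen 2 times a week for 6 weeks. Curcumin was given by daily gavage for 2 weeks. The labels do not say whether control mice had a gavage without curcumin, and no uninjured liver was analysed here. Mice were kept 3 to a cage, so that cage and group may coincide and cannot be told apart. The labels call the samples biological replicates, and p-values below measure the spread between livers of this series only. Except where said, they and the standard errors come from fits of all 12 libraries, low and high included.

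Carbon tetrachloride is turned into a reactive radical by cytochrome P450 in hepatocytes near the central vein. The dying cells draw in macrophages and neutrophils, and stellate cells lay down collagen. Immune cells signal through TNF and other ligands to NF-κB, while AP-1 and EGR factors are the first genes that cells switch on after a stimulus. Hepatocytes that survive carry the fasting, feeding and drug-handling programmes of the liver, which glucocorticoids, insulin with FOXO1, and nuclear receptors set. Curcumin, the yellow polyphenol of turmeric, is conjugated and excreted by the same cells. The series' title places it upstream of Slamf8, a receptor of the SLAM family on myeloid cells, and of TNF and NF-κB.

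Between 42917049 and 70376474 counts stood behind each of the 6 libraries, with 18474 to 20199 genes detected. Levels are given in CPM, counts set on a common library total with the trimmed mean of M-values (TMM), fold changes are medium against control on the log2 scale, and each has 3 libraries against 3 behind it. Mitochondrially encoded genes took 58.6%, 60.9% and 64.2% of the counts in control replicates 1 to 3, and 48.3%, 55.5% and 60.2% in medium replicates 1 to 3. The group difference of -6.54 percentage points did not pass an exact two-sided permutation test (p = 0.2, where 0.1 is the smallest that 3 against 3 can give). Medium replicate 1 stood apart: on the first principal component of the 6 libraries (40.5% of the variance) it lay at 49.1, and the other 5 between -34.1 and 8.0. The second component (22.0%) had every control above every medium library, at 4.93 to 24.9 against -26.9 to 0.711. As a check of the labelled tissue, the hepatocyte gene albumin (Alb) was present at 3466 to 19918 CPM, while the pancreatic genes Prss2 and Cpa1, the adipose gene Adipoq and the muscle gene Ckm were at 0 in all 6. In bulk RNA, fewer cells of a type and less RNA per cell cannot be told apart.

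With the quasi-likelihood test of edgeR 0 of 16839 genes (0.0%) had an adjusted p under 0.05, and the smallest adjusted p was 0.221. At an unadjusted p under 0.05 it held 940 genes (5.58%), 436 higher (2.59%) and 504 lower (2.99%) in medium. DESeq2 called 89 genes (0.529%), 59 higher (0.351%) and 30 lower (0.178%), and limma voom with quality weights called 35 (0.208%), 28 higher (0.166%) and 7 lower (0.0416%). A fit of the 2 groups alone called 8, among them Il6ra, Raver1, Lpin1, Fkbp5 and Plin5 (higher) and Fos (lower). All 3 medium libraries lay above all 3 controls for 1282 genes (7.61%) and below them for 1075 (6.38%). Counts of genes without overlap in the lists below stand against these shares. The genes below are therefore given with their values and not as changed. Of the 30 genes with the smallest p, 15 in each direction, DESeq2 called 27 and voom 15, and their adjusted p by edgeR ran from 0.353 to 0.501.

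**Figure D1:**
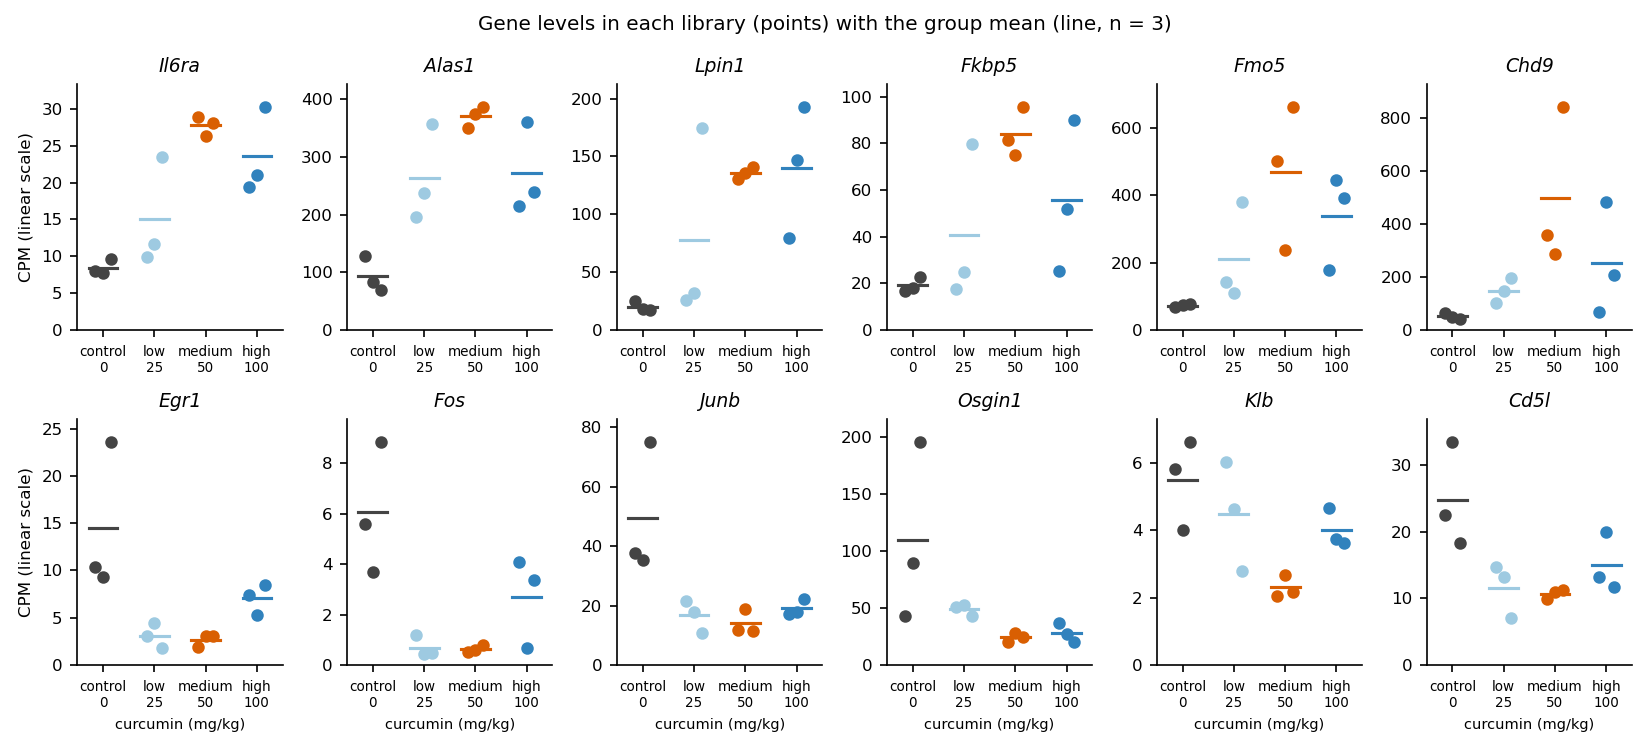
CPM on a linear scale that starts at 0 for 12 genes in the 12 libraries, by curcumin dose in mg/kg; points are libraries and lines are group means (n = 3). In every panel the 3 medium libraries lie wholly above (top row) or wholly below (bottom row) the 3 controls, while the low and high libraries are often spread between them.

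Genes of triglyceride storage held some of the largest differences. Lpin1, the lipin that makes diacylglycerol from phosphatidic acid and also acts as a transcriptional coactivator, had 25.2, 18.4 and 17.2 CPM in the controls and 131, 136 and 141 CPM in medium. The groups lay far apart, and the medium libraries lay close to each other, with a log2 fold change of 2.75 ± 0.64 (SE). Plin5, a lipid droplet coat protein of oxidative tissues, was at 2.24, 1.77 and 1.56 CPM in the controls against 11, 7.67 and 16.8 CPM in medium, a log2 fold change of 2.67 ± 0.53. Plin4, another coat protein, measured 1.54, 2.22 and 1.94 CPM in control and 13.6, 3.63 and 19.8 CPM in medium livers, and medium replicate 2 was the lowest of its group, only slightly above the controls (2.69 ± 0.67). For Cidec, which fuses lipid droplets, the controls had 0 counts each and the medium libraries 11, 20 and 7, so that no fold is given. Plin2, the common coat protein of hepatocyte droplets, overlapped between the groups at -0.44 ± 0.49. Of 20 tested genes of lipins and lipid droplets, 12 lay higher, 7 without overlap against the 7.61% of all genes, and 1 lay lower without overlap, and the list median was 0.26 beside 0.02 for all genes tested. Without medium replicate 1 it was 0.10, and with the mitochondrial share of counts as a covariate 0.09. The de novo lipogenesis list had a median of -0.03, with 9 of 20 higher, and the cholesterol list had -0.05, with 10 of 22 higher, and leaving out a library gave medians of both signs for each (lowest and highest -0.21 and 0.27, and -0.36 and 0.14). Fasn, the fatty acid synthase, stood at 79.8, 249.8 and 115 CPM in the controls and at 106, 66.2 and 85.5 CPM in medium (-0.78 ± 0.52). Its groups overlapped, and control replicate 2 was the highest of the 6.

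Alas1 and Fmo5, of haem synthesis and of oxidative drug metabolism, were among the genes with the smallest p. Alas1, the rate-limiting enzyme of hepatic haem synthesis, had 128, 82.5 and 69.3 CPM in the controls and 350.0, 374 and 386 CPM in medium, which is 3.97 times as high by the fitted fold (1.99 ± 0.39 on the log2 scale). The lowest medium library lay above the highest control, and leaving out each library in turn gave 1.82 to 2.28. Of 15 tested genes of haem synthesis and breakdown 10 lay higher, 2 without overlap (7.61% of all genes), and 1 lay lower without overlap (6.38%). Their median was 0.04 (-0.07 without medium replicate 1), and 1 gene had an unadjusted p under 0.05 in each direction. Fmo5, a flavin-containing monooxygenase, was at 68.8, 73.2 and 76.1 CPM in the controls against 502, 239 and 661 CPM in medium (2.68 ± 0.57). The controls lay close together and the medium libraries were spread, with replicate 2 the lowest. In the cytochrome P450 list 23 of 31 tested genes lay higher, 7 without overlap and 1 lower without overlap, at a median of 0.43. Without medium replicate 1 that median was 0.18, and with the mitochondrial share as a covariate 0.06. Cyp2e1, the main enzyme that activates carbon tetrachloride, measured 238, 153 and 299 CPM in control and 421, 374 and 330.4 CPM in medium livers (0.70 ± 0.46), and the groups were separated by a narrow gap. The near-identical members Cyp3a16 and Cyp3a44, whose reads the counting may have split between them, had lower values (-2.66 ± 0.95 and -2.01 ± 0.67) with control replicate 3 inside the medium range. Among the conjugating enzymes that handle curcumin and other phenols, 11 of 20 lay higher, 2 without overlap, and 9 lower, 3 without overlap, at a median of 0.13. That median was -0.22 without medium replicate 1, -0.04 without control replicate 2 and -0.15 with the mitochondrial share as a covariate, so that its direction was not settled. At an unadjusted p under 0.05 there were 0 higher and 2 lower, the glucuronosyltransferases Ugt2b35 (-0.74 ± 0.34) and Ugt2b38 (-1.11 ± 0.51), similar members of a family whose reads the counting may have split. Sult1a1, a phenol sulfotransferase, stood at 146, 139 and 133 CPM in the controls and at 203, 213 and 266 CPM in medium, without overlap (0.71 ± 0.34), and Ugt1a1, a bilirubin and phenol glucuronosyltransferase whose exons are shared with other members of its cluster, overlapped (-0.22 ± 0.30). Of 26 tested NRF2 targets 12 lay higher, 0 without overlap, and 2 lay lower without overlap, near the 6.38% of all genes. Their median was -0.06 (-0.38 without medium replicate 1). Hmox1, the haem-degrading enzyme and a target of NRF2, had 2.09, 5.23 and 2.65 CPM in the controls and 1.7, 1.82 and 1.79 CPM in medium (-0.91 ± 0.40), and the 3 medium libraries were alike and below every control.

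Genes that glucocorticoids induce had, with the respiratory chain genes described further on, the highest median of the 44 lists. Of 20 tested, 18 lay higher, 6 without overlap (7.61% of all genes) and 0 lower without overlap. The median was 0.55, and leaving out a library gave 0.43 (control replicate 3) to 0.88 (control replicate 1). As a list the groups overlapped: the median of the genes' centred log2 CPM was 0.168 in control replicate 1 and 0.164 in medium replicate 2. At an unadjusted p under 0.05 there were 7 higher (2.59% of all genes) and 1 lower (2.99%), G6pc. Some of these also stand in other lists (Per1 in the clock, Sds in the periportal and G6pc in the gluconeogenesis list), so the lists are not independent. Fkbp5, a co-chaperone of the glucocorticoid receptor and one of its classic targets, was at 16.6, 18.2 and 22.8 CPM in the controls against 81.4, 75.2 and 95.6 CPM in medium (2.13 ± 0.56). The groups were well apart. Zbtb16, a zinc finger repressor, measured 0.453, 0.302 and 0.134 CPM in control and 1.77, 0.78 and 1.68 CPM in medium livers (2.25 ± 0.56). Per1, a clock repressor that is also a direct target of the receptor, stood at 32.9, 27.2 and 35.6 CPM in the controls and at 58.7, 70.4 and 77.3 CPM in medium (1.11 ± 0.32). Ddit4, an inhibitor of mTORC1, had 1.89, 1.72 and 1.32 CPM in the controls and 4.66, 2.31 and 6.57 CPM in medium (1.46 ± 0.46). For each of these the lowest medium library was above the highest control. Tsc22d3, the glucocorticoid-induced leucine zipper, was at 109, 25.8 and 19.5 CPM in the controls against 116, 92.2 and 138 CPM in medium. Here control replicate 1 lay within the medium range and the groups overlapped: the fold change was 1.17 ± 0.54, and 2.35 without that library.

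Insulin and fasting genes did not all lie on the same side. Foxo1, the transcription factor that insulin keeps out of the nucleus, measured 7.65, 6.59 and 6.33 CPM in control and 14.5, 14 and 18.5 CPM in medium livers (1.19 ± 0.27), with no overlap. G6pc, the last enzyme of glucose release, stood at 127, 16.9 and 27.1 CPM in the controls and at 24.4, 11.2 and 12.6 CPM in medium. The lower fold change (-1.82 ± 0.78) rested on control replicate 1, and was -0.45 without it. Pck1, the enzyme that starts gluconeogenesis from oxaloacetate, overlapped between the groups at 0.34 ± 0.40. In the list of gluconeogenesis, FOXO1 and insulin response 17 of 26 lay higher, 7 without overlap (7.61% of all genes). On the lower side 2 were without overlap (6.38%), and the list median was 0.34 (0.17 without control replicate 2). Amino acid and urea cycle enzymes of periportal hepatocytes had a similar median, 0.45, with 14 of 17 higher, 6 of them without overlap, and 1 lower without overlap. That median ran from 0.25 (control replicate 2 left out) to 0.75 (control replicate 1 left out). Sds, serine dehydratase, had 298, 150.2 and 174 CPM in the controls and 507, 542 and 839.9 CPM in medium (1.60 ± 0.46). Cps1, carbamoyl-phosphate synthetase of the urea cycle, was at 261, 221 and 258 CPM in the controls against 492, 494 and 532 CPM in medium (1.04 ± 0.37). Both had every medium library above every control. Gpt2, an alanine aminotransferase, measured 111, 100.4 and 113 CPM in control and 269, 211 and 248 CPM in medium livers (1.16 ± 0.32), likewise without overlap. Among targets of PPAR-alpha, the fatty acid receptor of fasting, 24 of 30 lay higher at a median of 0.40. But 2 were without overlap, near the 7.61% of all genes. The median was 0.18 without medium replicate 1 and 0.62 without control replicate 1. With the mitochondrial share as a covariate it was 0.04, with 18 of 30 higher. Cpt1a, the gate of mitochondrial fatty acid uptake, stood at 49, 39.1 and 63.4 CPM in the controls and at 66.1, 96 and 69.9 CPM in medium (0.61 ± 0.31), so that the groups were separate by a small gap.

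Receptors and other single genes made up the rest of the higher side. Il6ra, the ligand-binding chain of the interleukin-6 receptor, had 7.98, 7.72 and 9.63 CPM in the controls and 28.9, 26.3 and 28.1 CPM in medium. The 3 medium libraries differed little from each other, as did the controls, and the fold change was 1.72 ± 0.32 (1.66 to 1.82 with each library left out in turn). In the list of IL-6, STAT3 and acute phase genes 14 of 25 were higher, 4 without overlap (7.61% of all genes), at a median of 0.04 (-0.18 without medium replicate 1). Saa4, a constitutive serum amyloid, was at 31.2, 45.9 and 34.3 CPM in the controls against 86.6, 61.2 and 244 CPM in medium (1.81 ± 0.49; 0.99 without medium replicate 3), while Saa1, its inducible relative, overlapped and varied widely within both groups (-0.05 ± 0.87). Tcim, a small regulator of transcription and immune responses, had the smallest p of the named genes on this side (unadjusted p = 6e-05 by edgeR's quasi-likelihood test): it measured 18.9, 15.4 and 9.81 CPM in control and 87, 46.6 and 152 CPM in medium livers (2.69 ± 0.45). Chd9, a chromodomain helicase, stood at 63.4, 49.9 and 42.3 CPM in the controls and at 358, 288 and 840.4 CPM in medium, the highest fold change among these genes at 3.26 ± 0.67, with medium replicate 3 far above the others of its group. St3gal5, the sialyltransferase that makes the ganglioside GM3, had 18, 11.3 and 8.9 CPM in the controls and 55.7, 67.1 and 58.1 CPM in medium (2.24 ± 0.47). Arhgef26, a guanine nucleotide exchange factor, was at 14.8, 10 and 10.1 CPM in the controls against 39.7, 37.7 and 40.6 CPM in medium (1.75 ± 0.36). In each of these the groups were clearly separate. Fbxo31, a substrate adaptor of a ubiquitin ligase, had 1.83 ± 0.35, Kcnk5, a potassium channel, 1.66 ± 0.36, Zmat1, a zinc finger gene, 1.56 ± 0.33, Zfp276, another, 1.46 ± 0.33, Sra1, a coactivator of steroid receptors, 1.35 ± 0.30, and Mpzl3, a membrane protein, 1.06 ± 0.24, all on the log2 scale and all without overlap. The counting step and its use of strand are not given in the sources used here, and exons of Tcim (18.7%), Arhgef26 (21.6%) and Zfp276 (16.6%) overlap a tested gene on the other strand in GENCODE M21, so that reads of the neighbour could count for them. Raver1, a splicing regulator, lay at 3.08 ± 0.89, but 99.7% of its exon bases are shared with the locus Gm38431, which makes its level uncertain.

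**Figure D2:**
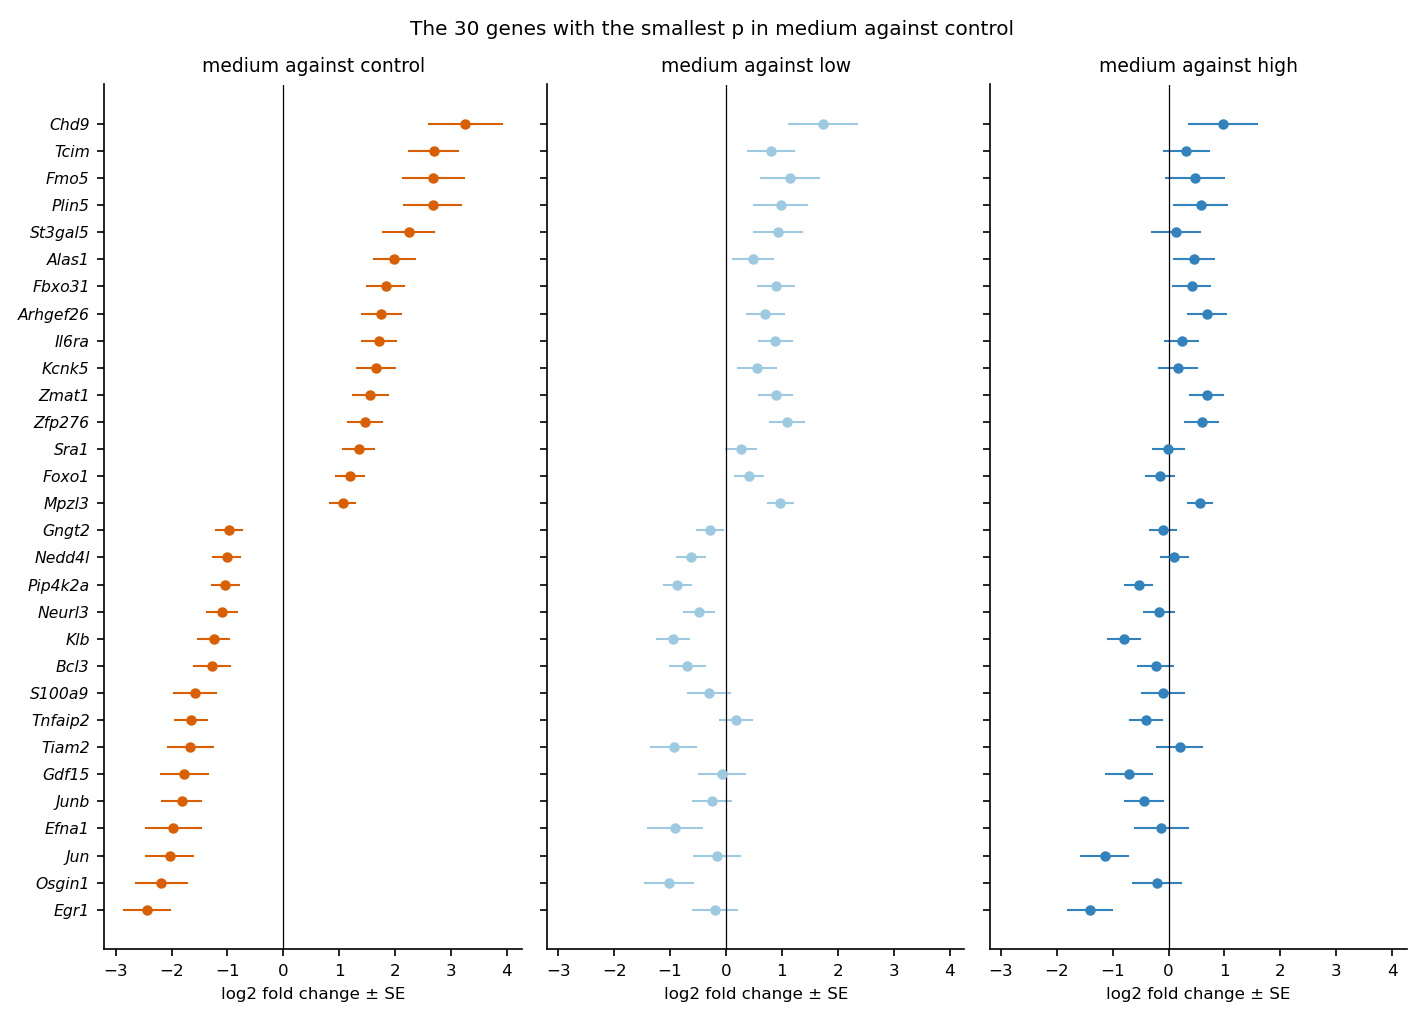
Log2 fold change ± SE (n = 3 against 3) of the 30 genes with the smallest p in medium against control, in that contrast and in medium against low and medium against high. The last 2 contrasts lie closer to 0 for most genes; the genes were picked by the first, and all 3 share the medium libraries.

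On the lower side, immediate early genes came first. Fos, a subunit of AP-1, measured 5.59, 3.7 and 8.85 CPM in control and 0.496, 0.597 and 0.81 CPM in medium livers. Every medium library was below every control, at a log2 fold change of -3.25 ± 0.61. Egr1, a zinc finger factor of the same early response, stood at 10.4, 9.34 and 23.6 CPM in the controls and at 1.86, 3.03 and 3.11 CPM in medium (-2.44 ± 0.42). Its control replicate 3 was the highest, and without it the value was -1.89. Junb had 37.7, 35.5 and 75.2 CPM in the controls and 11.7, 18.9 and 11.5 CPM in medium (-1.82 ± 0.37), and Jun was at 9.84, 7.89 and 24.6 CPM in the controls against 2.79, 2.56 and 5.0 CPM in medium (-2.03 ± 0.44). Both encode partners of Fos, both were highest in control replicate 3, and without that library they were at -1.38 and -1.36. Nr4a1, an orphan nuclear receptor, measured 2.37, 4.64 and 3.66 CPM in control and 0.589, 0.903 and 1.09 CPM in medium livers (-2.05 ± 0.40). Of 30 tested immediate early genes 26 lay lower, 15 of them without overlap against the 6.38% of all genes, and 0 lay higher without overlap. Their median was -0.80, it stayed between -0.85 and -0.67 with each library left out, and its scores were more alike within groups than those of the other 43 lists: the median of the genes' centred log2 CPM was 0.35 to 0.42 in the controls and -0.43 to -0.35 in medium. This list was known from earlier results of these data to lie lower.

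TNF and NF-κB genes lay lower to a smaller degree. Of 34 tested 29 were lower, 12 without overlap (6.38% of all genes) and 1 higher without overlap (7.61%). Their median was -0.39 (-0.24 without control replicate 2, and 0.05 when scaled by library totals, which put the median of all genes at 0.47). Tnf itself had few counts, 27, 97 and 13 counts in the controls and 17, 8 and 8 in medium. In CPM it stood at 0.68, 1.47 and 0.29 CPM in the controls and at 0.263, 0.122 and 0.125 CPM in medium, which gives -2.25 ± 0.69, and -1.49 without control replicate 2. Tnfaip2, a TNF-induced gene, had 7.85, 17.5 and 13.9 CPM in the controls and 4.34, 4.1 and 4.0 CPM in medium (-1.66 ± 0.30), and the medium libraries were almost equal. Bcl3, an IκB family protein that acts in the nucleus, was at 9.21, 23 and 10.5 CPM in the controls against 5.78, 5.66 and 6.26 CPM in medium (-1.27 ± 0.33; -0.74 without control replicate 2, the highest). Icam1, an adhesion molecule induced by NF-κB, measured 11.5, 27.8 and 14.1 CPM in control and 6.89, 7.8 and 10.1 CPM in medium livers (-1.11 ± 0.32). These 3 genes did not overlap between groups. The subunits Nfkb1 and Rela and the inhibitor Nfkbia had small differences of -0.25 ± 0.24, -0.29 ± 0.26 and -0.06 ± 0.22. These were near or under their SE, so that their direction was not settled. Scaled by library totals they were 0.17, 0.13 and 0.34, all below the 0.47 of all genes in that scaling.

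Slamf8 was near the limit of detection. It had 33, 54 and 14 counts in the controls and 0, 10 and 15 in medium. Scaled by TMM it stood at 0.831, 0.816 and 0.312 CPM in the controls and at 0, 0.153 and 0.234 CPM in medium, a log2 fold change of -2.32 ± 0.89 with an unadjusted p of 0.0221 and an adjusted p of 0.791 by edgeR's quasi-likelihood test. The groups did not overlap in CPM, but control replicate 3 and medium replicate 3 had about the same count from libraries of 64761176 and 68590840 counts, and the count of 0 in medium replicate 1 allows a level of up to 3 counts. DESeq2 and voom gave adjusted p of 0.241 and 0.233. Of 9 tested SLAM family genes 8 lay lower, 2 without overlap (6.38% of all genes), at a median of -0.55, which was -0.01 without control replicate 2. Toll-like receptor and inflammasome genes had a median of -0.71, with 23 of 26 lower, 6 of them without overlap, and 1 higher without overlap, and the median was -0.37 without control replicate 2. Tlr2, a receptor for bacterial lipoproteins, had 1.36, 4.12 and 1.07 CPM in the controls and 0.217, 0.321 and 0.997 CPM in medium (-2.10 ± 0.63). Ripk3, a kinase of necroptosis, was at 1.48, 3.07 and 1.09 CPM in the controls against 0.496, 0.78 and 0.67 CPM in medium (-1.54 ± 0.49). In both, control replicate 2 was the highest and no library overlapped. Interferon response genes had a median of -0.32 with 2 of 34 lower without overlap, near the 6.38% of all genes. Their median was -0.06 without control replicate 2 and 0.13 when scaled by library totals, where all genes had 0.47.

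Markers of immune cells lay lower, and control replicate 2 was the highest of the 6 libraries for many of them. S100a9, a neutrophil alarmin, measured 3.55, 10.1 and 3.63 CPM in control and 1.46, 1.84 and 2.52 CPM in medium livers, and its fold change of -1.58 ± 0.39 was -0.89 without control replicate 2. The 12 tested neutrophil genes had a median of -1.54, and -0.48 without that library; their summed level was 14.1 to 50.7 CPM in the controls and 12.1 to 36.6 CPM in medium. Kupffer cells, the resident macrophages, had 15 of 18 markers lower, 2 of them without overlap (6.38% of all genes). Their median was -0.72, and -0.35 without control replicate 2, with a summed level of 154 to 282 CPM against 140 to 158 CPM. Cd5l, a protein secreted by these cells, stood at 22.5, 33.6 and 18.3 CPM in the controls and at 9.85, 10.9 and 11.2 CPM in medium (-1.22 ± 0.33). Vsig4, their complement receptor, had 5.16, 4.47 and 5.78 CPM in the controls and 2.85, 2.92 and 3.19 CPM in medium (-0.78 ± 0.28). Those 2 did not overlap, whereas Clec4f, a Kupffer cell lectin, did, since control replicate 3 lay inside the medium range: it was at 54, 60.9 and 29.1 CPM in the controls against 23.4, 30.6 and 32.3 CPM in medium (-0.74 ± 0.31). Marco, a scavenger receptor, was at 26.6 CPM in control replicate 2 and between 0.612 and 1.52 CPM in the other 5 libraries, so that its fold change of -3.45 ± 0.99 was -0.51 without that library. B and plasma cell genes had 18 of 20 lower, 9 without overlap, and 1 higher without overlap, at a median of -0.76 (-0.41 without control replicate 2), and summed levels of 66.7 to 129 CPM against 61.0 to 75 CPM. Recruited macrophage genes had a median of -0.41, T and NK cell genes -0.36, and dendritic cell and MHC class II genes -0.33. Without control replicate 2 these were 0.00, 0.07 and -0.06. Their summed levels were 39.2 to 78.4, 12.0 to 29.5 and 60.5 to 129 CPM in the controls and 34.1 to 53, 15.6 to 16.2 and 65.5 to 116 CPM in medium. No defining marker of these immune cells was at 0 in all 6 libraries, though the T cell receptor component Cd3e was at 0 in control replicates 1 and 3, and their part in the lower TNF, SLAM and Toll-like receptor values was not tested. Erythroid genes, which come with blood in the tissue, summed to 186 to 1378 CPM in the controls and 140 to 1419 CPM in medium and so overlapped fully.

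Stress and signalling genes were among the other lower ones. Osgin1, which is induced by oxidative stress, measured 43, 89.8 and 196 CPM in control and 20.1, 28.1 and 24.2 CPM in medium livers (-2.18 ± 0.47). The controls were widely spread and control replicate 3 was the highest; without it the value was -1.46. Gdf15, a stress cytokine that acts on the brainstem to curb feeding, stood at 5.64, 6.77 and 9.79 CPM in the controls and at 2.26, 2.19 and 2.04 CPM in medium (-1.77 ± 0.43). Klb, β-klotho, the coreceptor through which hepatocytes sense FGF15, had 5.81, 3.99 and 6.62 CPM in the controls and 2.06, 2.68 and 2.16 CPM in medium (-1.25 ± 0.30). The medium libraries of both were close together and below all controls. Efna1, a membrane ligand of Eph receptors, was at 16.1, 33 and 54.7 CPM in the controls against 6.82, 14.2 and 5.5 CPM in medium (-1.97 ± 0.51), with control replicate 3 again highest. Tiam2, an exchange factor for Rac, had -1.66 ± 0.43, Neurl3, a ubiquitin ligase, -1.10 ± 0.29, Pip4k2a, a phosphoinositide kinase, -1.03 ± 0.26, Nedd4l, a ubiquitin ligase of ion channels, -1.01 ± 0.26, and Gngt2, a G protein gamma subunit, -0.98 ± 0.25, all without overlap. Smaller exon overlaps with a neighbour on the other strand were present for Junb (7.52%), Jun (7.28%) and Gngt2 (12.5%).

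Promoters were searched because AP-1 and NF-κB subunits and regulators were among these genes. RefSeq windows of 300 bases, 250 before to 50 after the start of the gene on GRCm38.p6, were present for 11 of the 15 higher and 12 of the 15 lower genes. The AP-1 motif TGANTCA, on either strand, was in 1 of the 11 (Plin5) and 1 of the 12 (Osgin1), and in 7.81% of all 32851 windows. The NF-κB motif was in 0 of the 11 and 2 of the 12 (Bcl3 and Neurl3), and in 4.51% of all windows. A gene was counted if any of its windows matched, whereas the shares of all windows are per window, so these units differ. No motif match overlapped another in the windows printed here. The 3 windows below, with the match in capitals, show the same AP-1 letters before a gene that lay lower (Osgin1, 97 bases before the start, chr8:119436897-119437196, plus strand) and before one that lay higher (Plin5, 11 bases before the start, chr17:56117499-56117798, minus strand), and an NF-κB match of Bcl3 that begins at base 3 of the gene (chr7:19822706-19823005, minus strand). A match is a description of letters and not of binding.
Osgin1: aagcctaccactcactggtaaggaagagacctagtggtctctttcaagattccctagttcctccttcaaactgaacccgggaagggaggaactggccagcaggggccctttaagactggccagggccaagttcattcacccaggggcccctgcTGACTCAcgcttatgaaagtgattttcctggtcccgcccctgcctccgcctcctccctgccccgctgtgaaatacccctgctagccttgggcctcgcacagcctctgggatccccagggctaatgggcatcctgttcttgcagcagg
Plin5: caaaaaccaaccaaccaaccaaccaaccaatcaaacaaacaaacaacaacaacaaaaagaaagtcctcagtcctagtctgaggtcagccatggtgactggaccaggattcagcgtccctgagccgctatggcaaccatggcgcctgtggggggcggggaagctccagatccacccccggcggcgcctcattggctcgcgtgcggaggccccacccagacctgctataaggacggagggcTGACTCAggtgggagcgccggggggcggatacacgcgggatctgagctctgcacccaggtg
Bcl3: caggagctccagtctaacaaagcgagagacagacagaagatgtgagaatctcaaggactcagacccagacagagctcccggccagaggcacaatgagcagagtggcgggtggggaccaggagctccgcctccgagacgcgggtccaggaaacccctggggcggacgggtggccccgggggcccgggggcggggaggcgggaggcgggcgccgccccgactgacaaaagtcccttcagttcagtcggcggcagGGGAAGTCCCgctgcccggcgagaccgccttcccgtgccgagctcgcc

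Among fibrosis genes the main collagens and the stellate cell actin overlapped between the groups. The main fibrillar collagens Col1a1 (-0.22 ± 0.83) and Col3a1 (-0.27 ± 0.59) overlapped, and Col1a1 measured 2.24, 5.47 and 4.24 CPM in control and 4.74, 4.22 and 1.29 CPM in medium livers. Acta2, the actin of activated stellate cells, stood at 2.14, 4.5 and 0 CPM in the controls and at 1.78, 0.398 and 2.66 CPM in medium (-0.47 ± 1.23), and it varied more within groups than between them. Of 29 tested collagen and matrix genes 12 lay higher, 3 without overlap (7.61% of all genes), and 17 lower, 1 without overlap (6.38%), at a median of -0.07. Without medium replicate 1 the median was -0.38, with 7 of the 29 higher. Leaving out each library gave -0.38 to 0.08, so that the split of this list was not settled. Scaled by library totals 25 of the 29 lay higher at 0.38, but so did 13852 of all 16839 genes, at a median of 0.47. Fn1, fibronectin, which hepatocytes also secrete, had 148, 166 and 173 CPM in the controls and 88, 126 and 119 CPM in medium (-0.55 ± 0.31), and Postn, periostin of activated fibroblasts, was at 1.74, 1.01 and 1.05 CPM in the controls against 3.35, 2.59 and 1.88 CPM in medium (1.05 ± 0.35): both were without overlap, in opposite directions. Pdgfrb, the receptor of platelet-derived growth factor on stellate cells, measured 2.69, 3.55 and 3.12 CPM in control and 1.73, 1.91 and 1.03 CPM in medium livers (-1.0 ± 0.37), also without overlap. It was the only 1 of 19 tested stellate cell and fibroblast markers without overlap, near the 6.38% of all genes. Des (-0.08 ± 0.47) and Lrat (0.05 ± 0.34), 2 other markers of these cells, overlapped. Stellate cell and fibroblast markers had a median of -0.24, TGF-β pathway genes -0.07 and matrix remodelling genes -0.13. Without medium replicate 1 these medians were -0.41, -0.20 and -0.38. Scaled by library totals they were 0.23, 0.42 and 0.34, each below the 0.47 of all genes in that scaling. The summed level of the 20 stellate cell and fibroblast markers was 72.3 to 79.5 CPM in the controls and 63.2 to 113 CPM in medium.

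**Figure D3:**
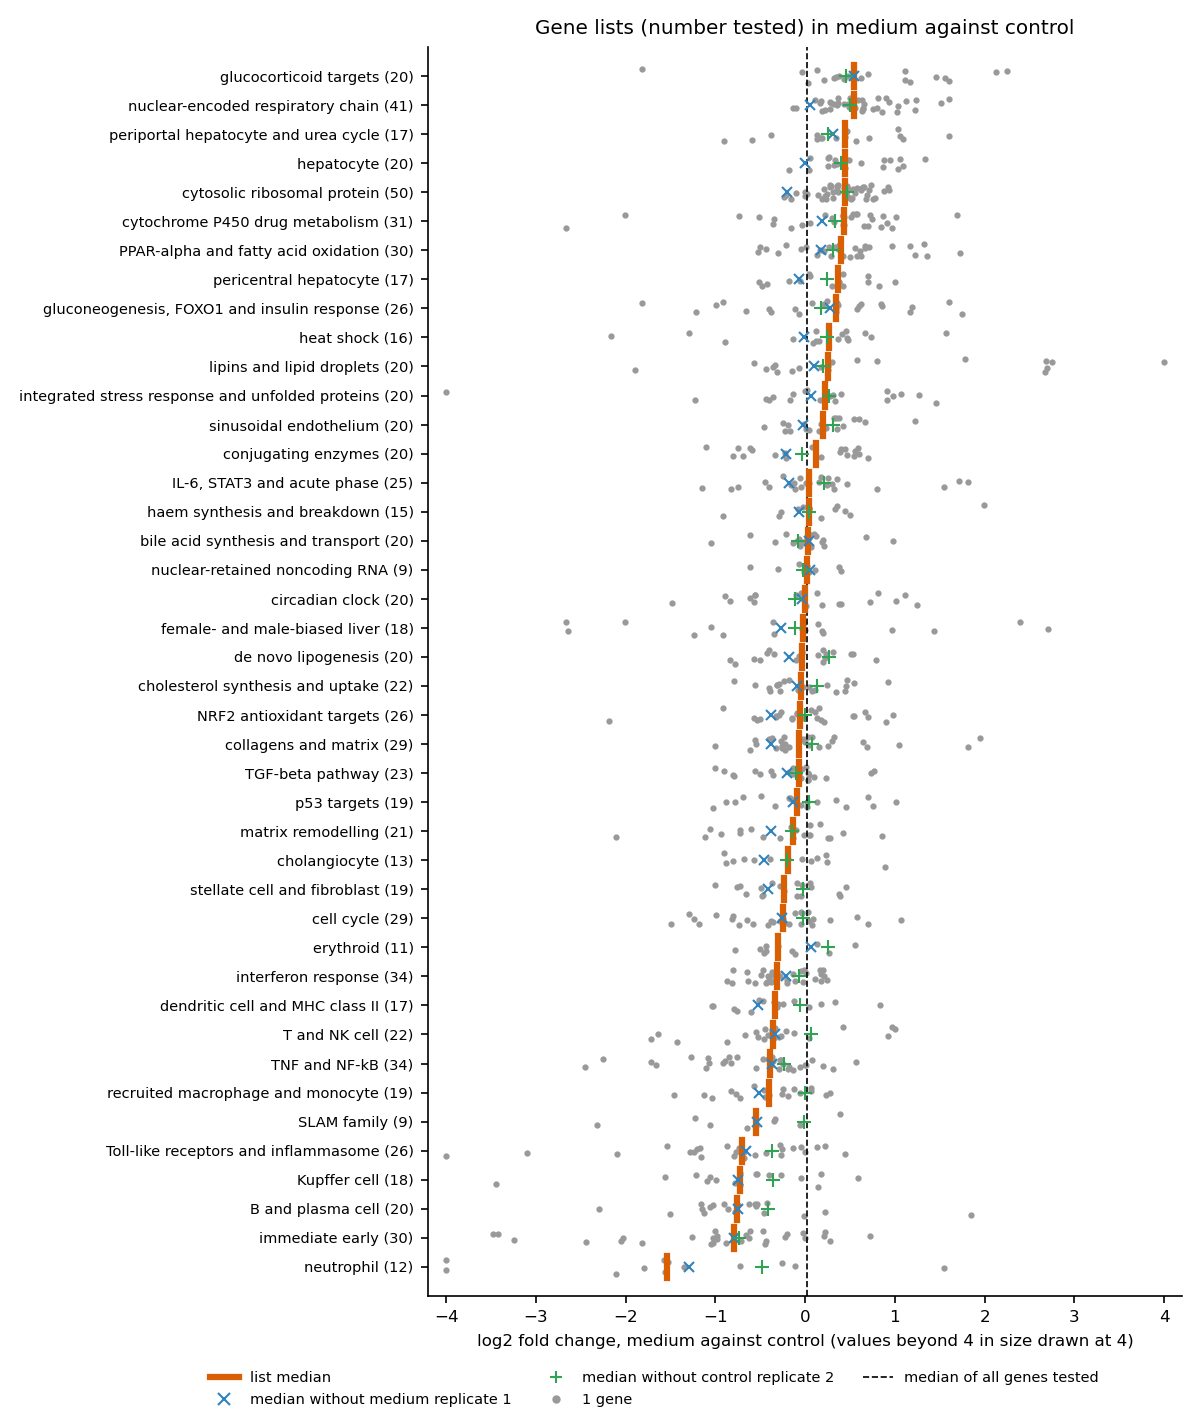
Log2 fold change (medium against control) of each tested gene (grey points) in the 42 lists with at least 5 tested genes, with the list median (orange), the median without medium replicate 1 (blue crosses) and without control replicate 2 (green plus signs), beside the median of all genes (dashed). Immune lists at the bottom move toward the dashed line without control replicate 2, hepatocyte, respiratory chain and ribosomal lists without medium replicate 1, and the immediate early and glucocorticoid lists little in either case.

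Hepatocyte, respiratory chain and ribosomal protein genes lay higher as lists, and medium replicate 1 moved all 3 medians. Of 20 hepatocyte markers 19 lay higher at a median of 0.45, of 41 nuclear-encoded respiratory chain genes 39 at 0.55, and of 50 cytosolic ribosomal protein genes 45 at 0.44. Without overlap were 4, 2 and 0 of them, beside 7.61% of all genes. Without medium replicate 1, the library with the lowest mitochondrial share, the medians were 0.00, 0.05 and -0.20. With the mitochondrial share as a covariate they were -0.05, 0.06 and -0.04. Alb stood at 9074, 4385 and 3466 CPM in the controls and at 19918, 6422 and 4737 CPM in medium (0.88 ± 0.99), and Ttr, transthyretin, had 323, 229.8 and 251 CPM in the controls and 1189, 265 and 218 CPM in medium (1.05 ± 1.04), and in both medium replicate 1 stood far above the other 5 libraries. With the same covariate the immediate early list was at -1.02 and the glucocorticoid list at 0.48. The 30 genes picked by p in the main fit had adjusted p of 0.0623 to 0.324 by edgeR in that fit, where 0 genes were called and 1630 had an unadjusted p under 0.05. Those 30 were picked in the same libraries, so their p here is not separate support.

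**Figure D4:**
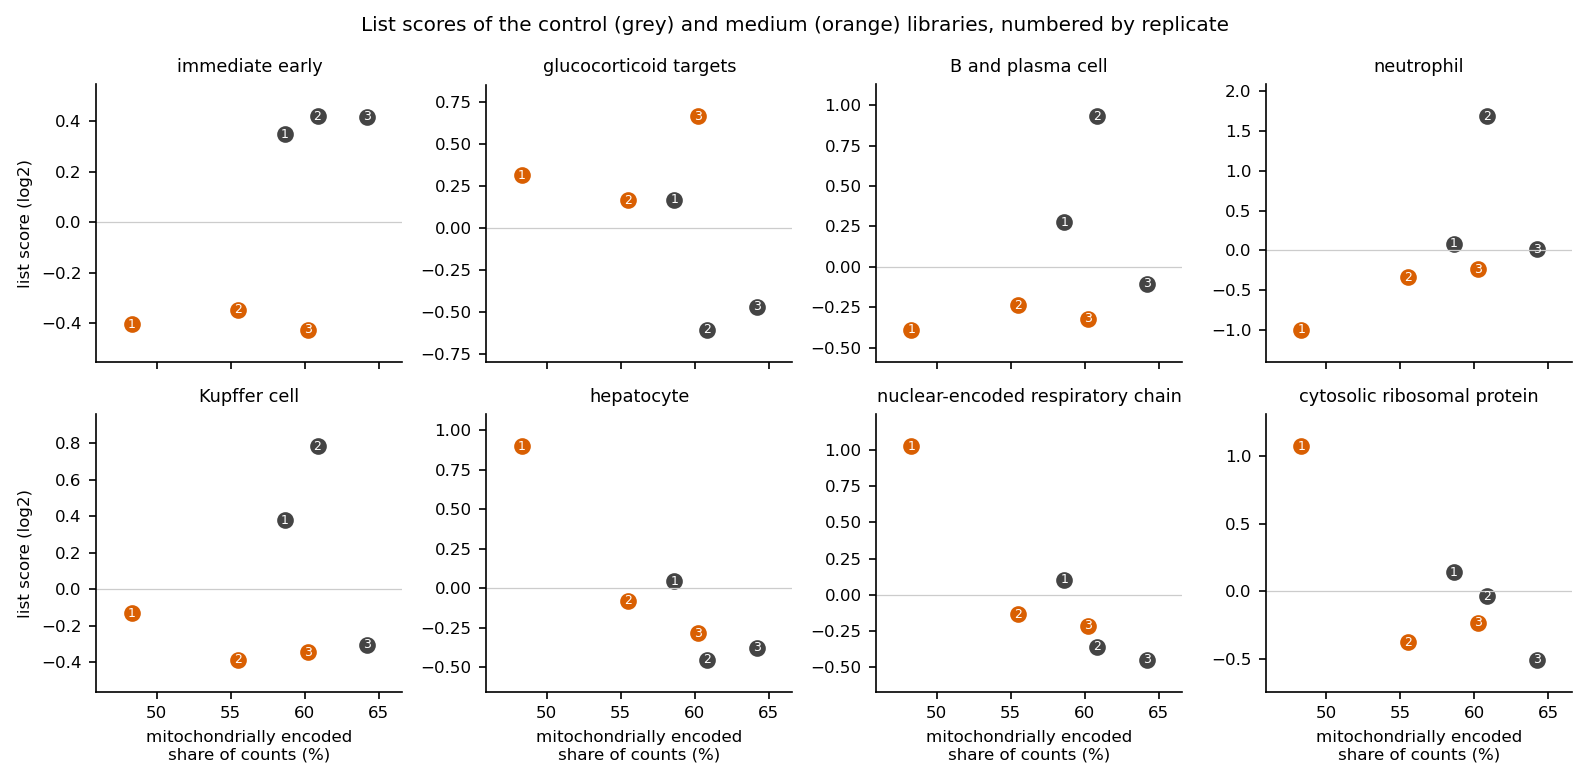
List score (median over genes of log2 CPM centred on the 6 libraries) against the mitochondrially encoded share of counts in percent, for 8 lists; grey points are control and orange points medium libraries, with the replicate number inside. Medium replicate 1 (48.3%) is highest in the hepatocyte, respiratory chain and ribosomal panels, control replicate 2 in the neutrophil, B cell and Kupffer cell panels, and the immediate early panel splits by group at every share.

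Among chaperone, stress, clock and growth genes some did not overlap between the groups. Hsph1, a cytosolic chaperone, was at 8.93, 6.12 and 4.79 CPM in the controls against 22.9, 17.8 and 18.5 CPM in medium (1.58 ± 0.48), and Hspa5, the chaperone BiP of the endoplasmic reticulum, measured 36.8, 48.6 and 34.2 CPM in control and 66.6, 95.9 and 87.5 CPM in medium livers (1.06 ± 0.41). Neither overlapped. The lists they stand in had medians of 0.26 (heat shock, 16 genes) and 0.22 (integrated stress response and unfolded proteins, 20 genes), and without medium replicate 1 of -0.01 and 0.06. Higher without overlap were 3 and 6 of their genes (7.61% of all genes), and lower without overlap 0 and 1 (6.38%). Among 20 clock genes 10 did not overlap, 6 higher and 4 lower, at a median of 0.00. Nr1d1, the repressor REV-ERBα, stood at 58.7, 55.9 and 97.5 CPM in the controls and at 29.8, 55.9 and 28.2 CPM in medium (-0.90 ± 0.33), so that control and medium replicates 2 nearly met, and Usp2, a deubiquitinase under clock control, had 18.7, 20.2 and 24.3 CPM in the controls and 41.1, 31.8 and 54.6 CPM in medium (1.01 ± 0.29). The time of day of sampling is not in the labels. Bbc3, the p53 target PUMA that promotes cell death, was at 3.65, 6.72 and 6.53 CPM in the controls against 3.07, 3.15 and 2.12 CPM in medium (-1.02 ± 0.28), with no overlap, while the 19 p53 targets had a median of -0.09. Cell cycle genes had a median of -0.25 with 21 of 29 lower, and of -0.02 without control replicate 2. Bile acid genes had a median of 0.03, with 0 of 20 free of overlap in either direction.

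Direct tests set the medium dose beside the neighbouring doses. Libraries of those doses were mixed in their mitochondrial share of counts. It was 63.7%, 64.1% and 43.0% in low replicates 1 to 3, and 30.3%, 64.7% and 42.1% in high replicates 1 to 3. Against low, edgeR called 0 of 16839 genes (543 at an unadjusted p under 0.05, 3.22%), DESeq2 11 (0.0654%) and voom 0. Against high, edgeR called 0 (846 at an unadjusted p under 0.05, 5.02%), DESeq2 11 (0.0654%) and voom 102 (0.606%). Of the 30 genes picked above by their p against control, 11 had an unadjusted p under 0.05 against low and 4 against high, and 0 passed the adjusted threshold in either. These contrasts share the medium libraries that picked the genes. Klb was lower in medium than in each of the 9 other libraries, with -0.95 ± 0.30 against low and -0.80 ± 0.30 against high, a pattern that 0.315% of genes had on the lower side. Mpzl3 was higher than in each of the 9 (0.481% of genes on the higher side), with 0.97 ± 0.24 and 0.56 ± 0.24. Fos differed from low by -0.07 ± 0.61, less than its SE, and from high by -2.10 ± 0.59, and Egr1 from low by -0.19 ± 0.41 and from high by -1.40 ± 0.41. Il6ra was above low by 0.88 ± 0.32, where low replicate 3 alone reached 23.5 CPM, and differed from high by 0.24 ± 0.31, less than its SE. Lpin1 differed from low by 0.80 ± 0.61 and from high by -0.04 ± 0.60, and in the low group its level was 26.4, 32.4 and 174 CPM, so that 1 low library was above the medium libraries and 2 were near the highest control.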

How the data were processed

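The authors deposited raw counts in a single table, as whole numbers, with a column for each library and a row for each Ensembl gene ID. The submitters' processing notes list STAR 2.7.10b, fastp 0.23.4 and StringTie 2.2.1, with mm39 as the genome build. Per the labels' protocols, total RNA was isolated with TRIzol and made into libraries with a Hieff kit. The counting step, its use of strand and its handling of shared reads are not given in the sources used here. Every one of the 12 columns matched a label. Symbols came from GENCODE M21, which named 91.5% of 56923 IDs; IDs without one held 0.812% of the counts.

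Genes passing filterByExpr (16839) were tested with edgeR 4.0.16 in R 4.3.3: TMM scaling, robust quasi-likelihood fits of all 12 libraries, and contrasts of medium with control, low and high, with Benjamini-Hochberg adjustment over all genes tested and a threshold of 0.05. Standard errors were taken as the fold change over the root of its F value. DESeq2 1.42.0, limma 3.58.1 (voom), other scalings and filters, a replicate block and leaving out libraries were alternatives. In simulated counts for medium against control on 16839 genes, the test recovered 11.9% of 67 genes with 2-fold, 79.1% of 67 with 4-fold and 90.9% of 66 with 8-fold changes, with 7 false calls. These counts were drawn independently for each gene at its fitted spread. Counts of 3 correspond to 0.0426 to 0.0699 CPM in the 6 libraries. Another 16.1% to 21.2% of their counts fell on 11 nuclear copies of mitochondrial genes (95% or more identical, across 80% or more of the length), none of which is named. No 2 libraries were copies (chi-square per degree of freedom of at least 33.8 within a group).

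Named genes are, in each direction, the 15 with the smallest p and the 8 with the largest fold change without overlap (mean log2 CPM of at least 1, no predicted locus or antigen receptor segment), up to 3 members of each of 44 lists with the smallest p, core list members, and the genes of the series' title. Some genes that this rule names are not reported here. The comparison, the lists and this rule were chosen with earlier results of these data known.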

Additional observations from a re-analysis of the deposited data

How the results depend on the processing

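For medium against control, edgeR's 0 genes became 89 with DESeq2, 35 with limma voom and 8 when only the 2 groups were fitted (1283 at an unadjusted p under 0.05 there); it was 0 to 0 with each library left out in turn, and 0 under every other setting run: both other scalings, no filter, a stricter filter, the mitochondrial share as a covariate, and the replicate block (870 at an unadjusted p under 0.05). Same-numbered libraries of the 2 groups correlated at 0.394, -0.0787 and 0.211 after removal of the group means, so the numbers were not taken as pairs. Against low, DESeq2 called 11, and leaving out a library gave 0 to 2, where low replicate 3 gave the 2. Against high, DESeq2 called 11 and voom 102, and leaving out a library gave 0 to 0; the replicate block gave 0 in both. The split of genes at an unadjusted p under 0.05, 436 higher and 504 lower, became 403 and 64 when scaled by library totals and 265 and 499 by totals without mitochondrial genes and their copies. The difference in mitochondrial share ran from -9.32 to -3.35 percentage points with each library left out and was -9.97 without the copies. Under library totals 16 of 44 list medians changed sign, but set against the median of all genes 1 did (bile acids). Of 1270 fold changes of 85 genes under alternatives, 20 changed sign. Under library totals these were Col1a1 (0.31), Col3a1 (0.24), Nfkb1 (0.17), Nfkbia (0.34), Plin2 (0.068), Rela (0.13), Saa1 (0.13) and Ugt1a1 (0.26). All of these lay below the median of all genes in that scaling, 0.47. With the mitochondrial share as a covariate they were Alb (-0.11) and Ttr (-0.20), and by voom Acta2 (0.20). Leaving out each library gave Acta2 -1.05 to 0.61, Alb -0.011 to 1.40, Col1a1 -0.53 to 0.17 (also 0.079), Nfkbia -0.19 to 0.061, Saa1 -1.18 to 0.76 (also 0.22 and 0.36) and Ttr -0.15 to 1.44. The cause of these shifts was not tested. In the simulation, with 3 libraries a group, the test missed most 2-fold changes. Its counts were drawn for each gene independently, without shifts that many genes of a library share, so its shares may not hold for these livers.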
